A study of Mus musculus with 18 samples.

Results

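The transcripts described here encode the basal transcription machinery: the subunits of RNA polymerases I, II and III, the Mediator complex, and the general transcription factors. They were chosen by name, as every gene label that begins with Polr1, Polr2, Polr3, Med, Taf, Gtf2 or Gtf3 followed by its subunit number or letter, without read-through labels or pseudogenes. The rule gave 106 gene labels of 17714, with 761 isoforms of 114425, and 104 of the labels are subunits or factors of known role. The other 2, Med9os and Polr1has, are opposite-strand labels.

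Small extracellular vesicles (sEVs) released by primary mouse brain cultures were set against the cells that released them. The groups were astrocyte sEVs and astrocytes, microglia sEVs and microglia, and neuron sEVs and neurons, with 3 libraries in each of the 6 groups. The labels describe primary cultures from brain and give no strain, genotype, age or treatment. Polyadenylated RNA was sequenced as full-length cDNA on a PacBio instrument. The 9 sEV libraries shared 1 sequencing pool and the 9 cell libraries another, so vesicle origin and pool cannot be told apart.

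RNA polymerase II transcribes protein-coding genes, RNA polymerase I the large ribosomal RNA precursor, and RNA polymerase III transfer RNAs, 5S ribosomal RNA and other short RNAs. TFIID binds the core promoter, TFIIA and TFIIB help to place the polymerase, TFIIF escorts it, TFIIE and TFIIH open the DNA, and Mediator relays signals from activators. TFIIIA and TFIIIC recruit the machinery of RNA polymerase III, and SL1 that of RNA polymerase I. These are nuclear protein complexes of every cell type, and the measurements below concern their messenger RNAs only.

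Promoters are shown for 5 of the 10 members whose difference between sEVs and cells, averaged over cell types, was called under every setting tried. Of those shown, Med28, Taf13, Polr2j and Polr3k were higher in sEVs, and Gtf3c5 was lower. Med8, Polr2m, Gtf3c6, Polr2b and Polr2c also met this condition and are not shown. The call of Gtf3c5 is no support, since it passed the filter on low counts, described below, only through cell libraries. Each is the 120 bases before the RefSeq transcription start, from RefSeq on build GRCm38.p6, read 5′ to 3′ on the gene's strand. The positions are chr5:45520109-45520228 on the plus strand for Med28, chr3:108571579-108571698 plus for Taf13, chr5:136116571-136116690 plus for Polr2j, chr2:181864240-181864359 plus for Polr3k and chr2:28583280-28583399 minus for Gtf3c5. Capitals mark matches to 4 motifs, searched on both strands. The GC box is spelled GGGCGG and is bound by factors of the Sp family. The CCAAT box is spelled by its name and is bound by the factor NF-Y. The ETS core is spelled CCGGAA and is bound by ETS-family factors. The TATA box is spelled TATAAA and is bound by the TATA-binding protein of TFIID. In Med28 the TATA box and the CCAAT box of the other strand overlap.
Med28: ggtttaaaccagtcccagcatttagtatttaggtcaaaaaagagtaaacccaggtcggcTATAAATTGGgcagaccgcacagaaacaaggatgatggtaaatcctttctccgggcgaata
Taf13: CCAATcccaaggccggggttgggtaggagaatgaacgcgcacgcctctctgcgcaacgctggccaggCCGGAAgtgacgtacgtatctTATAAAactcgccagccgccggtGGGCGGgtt
Polr2j: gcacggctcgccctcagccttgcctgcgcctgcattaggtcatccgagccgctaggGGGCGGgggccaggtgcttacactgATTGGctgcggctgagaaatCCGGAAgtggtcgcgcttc
Polr3k: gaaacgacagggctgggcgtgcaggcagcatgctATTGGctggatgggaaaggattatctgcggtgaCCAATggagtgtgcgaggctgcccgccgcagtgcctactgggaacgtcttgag
Gtf3c5: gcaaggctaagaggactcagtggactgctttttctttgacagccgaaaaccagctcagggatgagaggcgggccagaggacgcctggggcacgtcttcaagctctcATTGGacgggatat

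The CCAAT box was the 1 motif found in all 5 windows shown, and in Polr3k and Gtf3c5 it was the only one of the 4. The windows of the members not shown were not described singly. Of 89 members with a RefSeq window, 49.4% held a GC box, against 26.5% of all 32851 windows of this length. An ETS core was in 27.0% of the members' windows and in 8.07% of all windows. The CCAAT box was in 24.7% of the members' windows and in 21.3% of all windows, and the TATA box in 5.62% and 6.34%. The members gave 1 window each, while all windows could hold several of a gene and included genes not read here. The 2 shares are thus not of like sets, and a difference is not shown to be particular to the members. These shares describe letters in a window, not bound sites.

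The machinery made up less than 1% of the reads of every library. Library totals ran from 434298 to 683381 reads. The 106 labels took 0.559%, 0.439% and 0.525% of the reads in astrocyte sEV libraries, against 0.409%, 0.443% and 0.322% in astrocytes. They took 0.434%, 0.387% and 0.421% in microglia sEV libraries, against 0.202%, 0.181% and 0.197% in microglia. In neuron sEV libraries they took 0.419%, 0.421% and 0.424%, against 0.354%, 0.361% and 0.344% in neurons. The share was higher in every sEV library than in every library of the source cells for microglia and neurons, and the astrocyte groups overlapped. These are shares of library totals, before the TMM scaling between libraries used in the tests below. After it, the median log2 difference of the 67 tested members was 0.27 in astrocytes, 0.10 in microglia and 0.36 in neurons. Over all tested genes it was 0.0, 0.0 and -0.10. Within a bulk library, fewer cells of a type and less RNA per cell cannot be told apart. Between 56 and 90 of the labels had reads in a library, and 30 had reads in all 18.

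**Figure D1:**
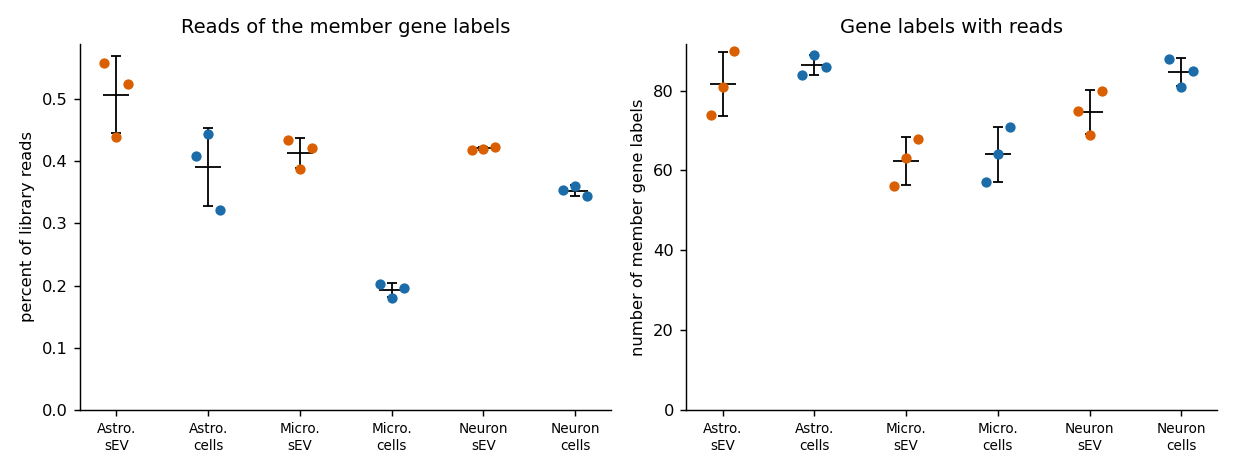
Left, percent of each library's reads that belong to the 106 gene labels; right, number of the labels with at least 1 counted isoform. Points are libraries, bars the mean and SD of 3 libraries, sEVs in orange and cells in blue; microglia cells sit lowest on the left, at 0.193% on average.

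The markers of the labelled cell type were read in every group. Microglia marker genes were at 0 in all neuron and neuron sEV libraries. In RPM, reads scaled to equal library totals, astrocyte markers were also found in the neuron cultures, at 3939 RPM in neuron sEVs and 3527 RPM in neurons, against 1561 RPM and 5253 RPM of neuron markers in the same groups, and oligodendrocyte-lineage markers averaged 6757 RPM in astrocytes. Single defining markers were at 0 even in the labelled type, namely Cx3cr1 in microglia, Tmem119 and Itgam in microglia sEVs, Sox9 in astrocyte sEVs and Syp in neuron sEVs. The part of these other cells in the results below was not tested. The libraries of astrocyte sEV replicate 1 and neuron sEV replicate 1 stood apart by 1 transcript, Gm42047, with 6.76% and 8.94% of their reads, and at most 1.63% in the other libraries. Without both of these libraries, 9 calls given below were lost, with adjusted p from 0.051 to 0.16 (edgeR). They were Med7 in astrocyte sEVs, Polr2j in microglia sEVs, Gtf3c6, Med22 and Polr3e in neuron sEVs, Med10 and Gtf2b in the mean over cell types, Med28 in astrocytes and Polr2l in microglia.

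Levels are given as CPM, counts scaled by library size and TMM factor. They are not divided by transcript length, which the files do not give, so genes are compared with themselves across libraries. Tests used edgeR's quasi-likelihood F test in 1 fit of all libraries, with Benjamini-Hochberg adjustment over all 8184 genes that passed the filter on low counts, and a gene was called at an adjusted p under 0.05. Of the 106 members, 67 were tested. In some of their calls 6 members, Taf4, Taf10, Polr2i, Gtf3c5, Gtf3c1 and Med25, had passed the filter only through the libraries in which they were high, so a difference there was built in and their p-values support nothing. These calls were Taf4 in astrocyte sEVs and in the mean over cell types, and Gtf3c5 in that mean. They were also Taf10 and Polr2i in neuron sEVs, Gtf3c1 in microglia and in neurons, and Med25 in astrocytes and in microglia. The 39 others were too sparse, among them several of the large subunits. Polr2a, the catalytic subunit of RNA polymerase II, had 11 reads in all, none of them in sEVs. Whether the replicates of a group came from separate cultures is not stated, and the p-values therefore cover the spread among these libraries alone.

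Averaged over the 3 cell types, 17 of the 67 tested members differed between sEVs and cells, 12 higher and 5 lower in sEVs. This is 25.4% of the tested members, against 33.9% of all genes. The share called higher was 17.9% of members and 14.4% of all genes, and the share called lower was 7.46% and 19.5%. The median log2 difference was 0.22 over the tested members and -0.15 over all tested genes. The members called higher were Med28, Med8, Med10, Taf13, Taf4, Polr2j, Polr2g, Polr2m, Polr2l, Polr3k, Gtf3c6 and Gtf3a. Those called lower were Polr2b and Polr2c of the RNA polymerase II core, TFIIB (Gtf2b), Gtf2f1 of TFIIF and Gtf3c5 of TFIIIC.

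Among polymerase subunits the small Polr2j, which pairs with Polr2c in the RNA polymerase II core, rose in sEVs. Polr2j was at 46.2, 33.7 and 36.6 CPM in astrocyte sEVs, against 19.01, 26.8 and 18.7 CPM in astrocytes. It was at 71.7, 45.7 and 26.8 CPM in microglia sEVs, against 13.04, 11.6 and 14.02 CPM in microglia. It was at 52.5, 38.8 and 49.0 CPM in neuron sEVs, against 32.2, 12.5 and 11.7 CPM in neurons. The sEV libraries lay above their source cells in each cell type without overlap, and the mean log2 difference was 1.34 ± 0.31 (SE; 2.54-fold; adjusted p = 0.0027, edgeR). In microglia alone Polr2j was called at 3.68-fold (adjusted p = 0.039, edgeR), a call that 12 of 18 single libraries ended when left out, with adjusted p up to 0.14 (edgeR). Its partner Polr2c went the other way, with a mean log2 difference of -0.86 ± 0.27 (SE; adjusted p = 0.021, edgeR). Polr2c averaged 37.2 ± 27.2 CPM in astrocyte sEVs and 87.7 ± 4.23 CPM in astrocytes (SD, n = 3 each). It averaged 101 ± 45.6 CPM in microglia sEVs and 135.2 ± 29.9 CPM in microglia (SD, n = 3 each). It averaged 41.6 ± 15.7 CPM in neuron sEVs and 79.4 ± 12.5 CPM in neurons (SD, n = 3 each). The microglia groups of Polr2c overlapped, and the astrocyte and neuron groups did not.

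Polr2b, which forms the active cleft of RNA polymerase II together with Polr2a, fell in neuron sEVs. It had 0, 0 and 4 reads in neuron sEV libraries, against 38, 41 and 39 reads in neurons. The neuron groups were far apart, with a log2 difference of -4.56 ± 1.12 (SE; adjusted p = 0.0051, edgeR). In astrocytes Polr2b was at 48.8, 35.6 and 14.6 CPM in sEVs, against 96.5, 98.9 and 76.4 CPM in cells. In microglia it was at 66.2, 0 and 46.9 CPM in sEVs, against 26.1, 46.3 and 32.7 CPM in cells. The difference of Polr2b was not called in either of these cell types alone. Over the 3 cell types the mean log2 difference was -1.97 ± 0.56 (SE; adjusted p = 0.010, edgeR).

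Polr2g, a subunit of the stalk of RNA polymerase II, was the most read member. It was at 1036, 1044 and 1135 CPM in microglia sEVs, against 587, 562 and 526 CPM in microglia. The microglia groups did not overlap, and the log2 difference was 0.94 ± 0.25 (SE; 1.92-fold; adjusted p = 0.018, edgeR). In the other cell types Polr2g averaged 99.9 ± 17.97 CPM in astrocyte sEVs and 77.1 ± 23.5 CPM in astrocytes, and 104 ± 9.30 CPM in neuron sEVs and 79.3 ± 15.5 CPM in neurons (SD, n = 3 each). The rise averaged over cell types was 0.57 ± 0.15 on the log2 scale (SE; adjusted p = 0.0056, edgeR). Leaving out any of the 3 microglia cell libraries ended the call in microglia alone, with adjusted p up to 0.087 (edgeR).

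Polr2m encodes a subunit that binds a part of RNA polymerase II and limits initiation. It averaged 482 ± 117 CPM in astrocyte sEVs and 170.4 ± 62.8 CPM in astrocytes (SD, n = 3 each). It averaged 561 ± 143 CPM in neuron sEVs and 242 ± 147 CPM in neurons (SD, n = 3 each). In microglia it averaged 144 ± 18.6 CPM in sEVs and 149.7 ± 24.8 CPM in cells (SD, n = 3 each). The mean log2 difference was 0.89 ± 0.23 (SE; 1.85-fold; adjusted p = 0.0055, edgeR). It was called higher in astrocyte sEVs (adjusted p = 0.012, edgeR) and in neuron sEVs (adjusted p = 0.026, edgeR). The astrocyte call was lost without Astrocyte_cells replicate 2 or 3 or Astrocyte_sEV replicate 2, with adjusted p up to 0.072, and the neuron call without any of 5 single libraries, with adjusted p up to 0.12 (edgeR). The isoforms of Polr2m differed by library. An isoform with an alternative 5′ end had 0, 182 and 197 reads in neuron sEV libraries, against 0, 7 and 0 reads in neurons. Neuron sEV replicate 1 thus had none of it while replicates 2 and 3 had many.

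Polr2l, shared by RNA polymerases I, II and III, averaged 97.9 ± 26.4 CPM in neuron sEVs and 31.2 ± 2.26 CPM in neurons (SD, n = 3 each), and its mean log2 difference over cell types was 1.36 ± 0.39 (SE; adjusted p = 0.011, edgeR). Polr2e, shared by RNA polymerases I, II and III, averaged 123.3 ± 31.7 CPM in neuron sEVs and 96.2 ± 7.89 CPM in neurons (SD, n = 3 each) and was not called. Polr2i, which sits at the jaw of RNA polymerase II and takes part in proofreading, rose in neuron sEVs. It had 67, 38 and 55 reads in neuron sEV libraries, against 6, 7 and 2 reads in neurons, and the log2 difference was 3.58 ± 0.93 (SE; adjusted p = 0.0074, edgeR). These neuron libraries did not overlap. Polr2i passed the filter only through the neuron sEV libraries, so neither this separation nor its p-value is support. Polr2i was sparse in the other groups, with 32 reads in all astrocyte sEV libraries and 11 in astrocytes, and 2 reads in microglia sEVs and 2 in microglia.

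RNA polymerase III differed by subunit. Polr3k, which takes part in transcript cleavage and termination, was at 351, 196 and 260.4 CPM in astrocyte sEVs, against 187, 186 and 151 CPM in astrocytes. It was at 127, 187 and 156 CPM in microglia sEVs, against 55.4, 49.2 and 91.1 CPM in microglia. It was at 195, 207 and 212 CPM in neuron sEVs, against 185, 177 and 176 CPM in neurons. After TMM scaling, in no cell type did the sEVs overlap their source cells. In neurons the direction depended on this scaling, with TMM factors of 0.906, 0.909 and 0.915 in sEVs and 1.18 in each cell library. By library totals alone, Polr3k was lower in every neuron sEV library than in every neuron library. Over the 3 cell types the mean log2 difference was 0.69 ± 0.16 (SE; 1.61-fold; adjusted p = 0.0030, edgeR). In microglia alone it was 1.25 ± 0.29 (SE; adjusted p = 0.0099, edgeR), a call lost without Microglia_cells replicate 1 or 2, with adjusted p up to 0.069 (edgeR). Polr3e, another subunit of the enzyme, had no reads in neuron sEVs, against 4, 14 and 6 reads in neurons, which is at least 2.26-fold lower against a floor of 3 reads per library (adjusted p = 0.024, edgeR). That call was lost without Neuron_cells replicate 2 or any single neuron sEV library, with adjusted p up to 0.069 (edgeR). RNA polymerase I had 1 tested member of its own, Polr1e, which averaged 11.5 ± 10.0 CPM in astrocyte sEVs and 20.1 ± 4.97 CPM in astrocytes (SD, n = 3 each). Polr1c, shared by RNA polymerases I and III, averaged 89.8 ± 29.2 CPM in astrocyte sEVs and 78.5 ± 10.3 CPM in astrocytes (SD, n = 3 each). Neither was called in any comparison of sEVs with cells.

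Of the 18 tested Mediator subunits, Med28, Med8 and Med10 were called over the 3 cell types. Med28, a subunit found in animal Mediator, was at 342, 325 and 351 CPM in astrocyte sEVs, against 126, 114 and 124 CPM in astrocytes. It was at 469, 379 and 476 CPM in microglia sEVs, against 189, 206 and 229 CPM in microglia. It was at 439, 429 and 450.0 CPM in neuron sEVs, against 156, 129.7 and 194 CPM in neurons. All 9 sEV libraries lay above all 9 cell libraries, the 1 tested member of which this was true. How many of all tested genes were separated in this way was not counted. The mean log2 difference was 1.34 ± 0.12 (SE; 2.53-fold; adjusted p = 2.09e-07, edgeR). Med28 was called in each cell type, at 2.79-fold in astrocytes (adjusted p = 1.09e-04), 2.12-fold in microglia (adjusted p = 0.0029) and 2.74-fold in neurons (adjusted p = 8.01e-05), all with edgeR. The microglia call was lost when all genes with reads were tested without a filter (adjusted p = 0.055, edgeR).

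Med8, a head subunit, was at 107, 172 and 127 CPM in astrocyte sEVs, against 48.3, 33.9 and 53.4 CPM in astrocytes. It was at 147, 276 and 169 CPM in neuron sEVs, against 62.8, 78.1 and 58.6 CPM in neurons. In microglia it was at 64.4, 153 and 112 CPM in sEVs, against 75.0, 54.995 and 72.4 CPM in cells. The astrocyte and neuron groups did not overlap while the microglia groups did, and the mean log2 difference was 1.28 ± 0.21 (SE; 2.43-fold; adjusted p = 1.29e-04, edgeR). Med10, of the middle module, averaged 163 ± 12.7 CPM in neuron sEVs and 84.7 ± 12.8 CPM in neurons (SD, n = 3 each), with a mean log2 difference over cell types of 0.60 ± 0.21 (SE; adjusted p = 0.034, edgeR). Leaving out any of 12 single libraries ended this call, with adjusted p up to 0.092 (edgeR). Med7, also of the middle module, fell in astrocyte sEVs, to 62.0, 53.5 and 46.8 CPM in astrocyte sEVs, against 93.6, 107 and 128 CPM in astrocytes (adjusted p = 0.046, edgeR), and 13 of 18 single libraries ended that call when left out, with adjusted p up to 0.16 (edgeR).

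Med22, of the head module, was called higher in neuron sEVs, at 259, 213 and 27.2 CPM in neuron sEVs, against 38.6, 50.002 and 38.5 CPM in neurons (adjusted p = 0.039, edgeR). Neuron sEV replicates 1 and 2 were high and replicate 3 lay below the neurons. An isoform with an alternative 5′ end had 111, 66 and 0 reads in these sEV libraries, against 4, 3 and 0 reads in neurons. The other full-splice isoform had 42, 33 and 15 reads in neuron sEVs, against 20, 29 and 17 reads in neurons. Leaving out 9 single libraries, among them neuron sEV replicates 1 and 2, ended the call, with adjusted p up to 0.17 (edgeR). The kinase module had 1 tested member, Med13l, which averaged 22.6 ± 21.3 CPM in neuron sEVs and 4.35 ± 2.04 CPM in neurons (SD, n = 3 each) and was not called.

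**Figure D2:**
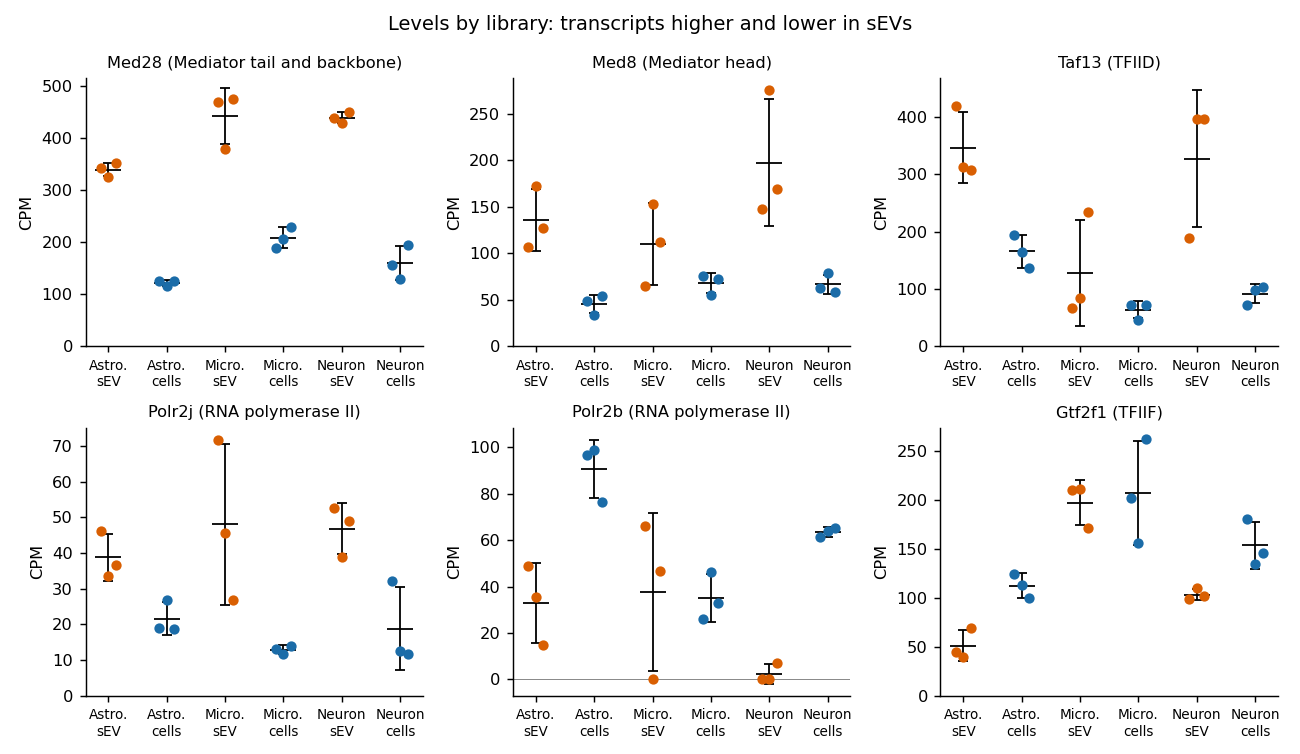
CPM of 6 members in each library, with sEVs in orange left of their source cells in blue. Points are libraries and bars the mean and SD of 3 libraries; Med28 is higher in every sEV library than in every cell library, and Polr2b is near 0 in neuron sEVs.

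Of the TFIID subunits, Taf13, a histone-fold protein, rose in sEVs. Taf13 was at 419, 313 and 309 CPM in astrocyte sEVs, against 195, 165 and 137 CPM in astrocytes. It was at 189.7, 396 and 397 CPM in neuron sEVs, against 72.4, 98.4 and 104 CPM in neurons. In microglia it was at 66.2, 83.4 and 234 CPM in sEVs, against 71.7, 46.3 and 72.4 CPM in cells. The astrocyte and neuron groups did not overlap and the microglia groups did. The mean log2 difference was 1.31 ± 0.24 (SE; 2.47-fold; adjusted p = 3.70e-04, edgeR), and neurons gave the call in a single cell type (3.57-fold; adjusted p = 0.0030, edgeR).

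Taf4 and Taf10 were read almost only in sEVs, and both passed the filter only through sEV libraries. Taf4, a scaffold of TFIID, had 29, 33 and 15 reads in astrocyte sEV libraries and none in astrocytes, at least 9.69-fold higher against the floor of 3 reads per library (adjusted p = 0.012, edgeR). Taf4 had 7, 9 and 15 reads in neuron sEVs, against 0, 0 and 4 reads in neurons, and 0, 0 and 5 reads in microglia sEVs, against none in microglia. Its call over the 3 cell types (adjusted p = 0.0033, edgeR) was lost without Microglia_sEV replicate 3, whose 5 reads were the only ones in the microglia groups. Taf10, which TFIID shares with the SAGA coactivator, had 36, 11 and 23 reads in neuron sEVs and none in neurons, at least 8.69-fold higher (adjusted p = 0.011, edgeR). Taf10 also had 9, 0 and 7 reads in astrocyte sEVs, and no read in any cell library. Since no isoform is listed with a single read, a 0 here can hide single reads. Among factors related to TFIID, Taf5l of SAGA averaged 25.6 ± 7.28 CPM in astrocyte sEVs and 9.13 ± 8.26 CPM in astrocytes (SD, n = 3 each), and Taf1b of SL1 averaged 42.5 ± 22.1 CPM and 19.2 ± 3.31 CPM in the same groups. Neither was called.

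The factors that join the polymerase at the promoter were lower or not called. Gtf2f1, the larger TFIIF subunit, was at 44.8, 39.6 and 68.7 CPM in astrocyte sEVs, against 124, 113 and 99.5 CPM in astrocytes. It was at 98.2, 109.8 and 102 CPM in neuron sEVs, against 180.3, 134 and 146 CPM in neurons. In microglia it averaged 197 ± 22.7 CPM in sEVs and 207 ± 52.8 CPM in cells (SD, n = 3 each). The astrocyte and neuron groups did not overlap. The mean log2 difference was -0.59 ± 0.16 (SE; adjusted p = 0.0080, edgeR), and in astrocytes it was -1.13 ± 0.28 (SE; adjusted p = 0.0091, edgeR). Without the filter on low counts both calls were lost (adjusted p = 0.16 and 0.10, edgeR), and the astrocyte call was also lost with full-splice counts alone (adjusted p = 0.057, edgeR). TFIIB, encoded by Gtf2b, had 0, 0 and 5 reads in neuron sEVs, against 14, 12 and 8 reads in neurons, and averaged 57.3 ± 14.8 CPM in microglia sEVs and 53.4 ± 14.4 CPM in microglia (SD, n = 3 each). Its call over the 3 cell types (adjusted p = 0.049, edgeR) was lost without any of 15 single libraries, with adjusted p up to 0.099 (edgeR). The most abundant tested members of TFIIA, TFIIE and TFIIH were not called between sEVs and cells. Gtf2a2 averaged 53.8 ± 15.2 CPM in neuron sEVs and 30.5 ± 15.8 CPM in neurons, Gtf2e2 averaged 22.98 ± 4.52 CPM and 48.1 ± 16.6 CPM, and Gtf2h5 averaged 204.8 ± 23.02 CPM and 111 ± 9.75 CPM in the same groups (SD, n = 3 each).

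Of the factors of RNA polymerase III, TFIIIA (Gtf3a), which binds the 5S ribosomal RNA gene, rose in neuron sEVs. It was at 256, 271 and 187 CPM in neuron sEVs, against 48.3, 56.3 and 48.6 CPM in neurons. The neuron groups were well apart, and the log2 difference was 2.22 ± 0.41 (SE; 4.64-fold; adjusted p = 6.34e-04, edgeR). Gtf3a averaged 66.9 ± 14.3 CPM in astrocyte sEVs and 53.6 ± 7.59 CPM in astrocytes, and 20.7 ± 12.3 CPM in microglia sEVs and 20.9 ± 11.5 CPM in microglia (SD, n = 3 each). Within TFIIIC, which binds the internal promoters of transfer RNA genes, Gtf3c5 and Gtf3c6 moved in opposite directions. Gtf3c5 had no reads in astrocyte sEVs, against 14, 21 and 18 reads in astrocytes, at least 5.33-fold lower (adjusted p = 0.010, edgeR). It had 0, 0 and 3 reads in neuron sEVs, against 11, 12 and 13 reads in neurons, and 0, 4 and 3 reads in microglia sEVs, against 2, 4 and 0 reads in microglia. The mean difference of Gtf3c5 was called (adjusted p = 0.0044, edgeR), but it passed the filter only through cell libraries, so this p-value supports nothing. Gtf3c6 averaged 82.4 ± 12.6 CPM in astrocyte sEVs and 56.5 ± 9.44 CPM in astrocytes, and 60.2 ± 26.7 CPM in neuron sEVs and 20.9 ± 2.51 CPM in neurons (SD, n = 3 each). Its mean log2 difference was 0.98 ± 0.27 (SE; 1.97-fold; adjusted p = 0.0082, edgeR), and it was also called in neurons alone (adjusted p = 0.022, edgeR). The call in neurons was lost without any single neuron library or Neuron_sEV replicate 1 or 2, with adjusted p up to 0.098 (edgeR).

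By cell type, the members called in astrocytes were 4 higher and 3 lower in sEVs, 7 of 67, against 20.2% of all genes (8.03% higher and 12.2% lower). In microglia 4 were higher and 1 was lower, 5 of 67, against 11.9% of all genes (2.65% higher and 9.20% lower). Leaving out Microglia_cells replicate 2 left 1 call in microglia, Microglia_cells replicate 1 or 3 left 2, and Microglia_sEV replicate 1 or 2 left 3. In neurons 9 were higher and 2 lower, 11 of 67, against 31.4% of all genes (13.6% higher and 17.8% lower). The test of whether the sEV difference depended on cell type called no member, against 3.96% of all genes, while 10 members had an unadjusted p under 0.05. DESeq2 called 6 members in the same test, and its share over all genes is not given here.

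**Figure D3:**
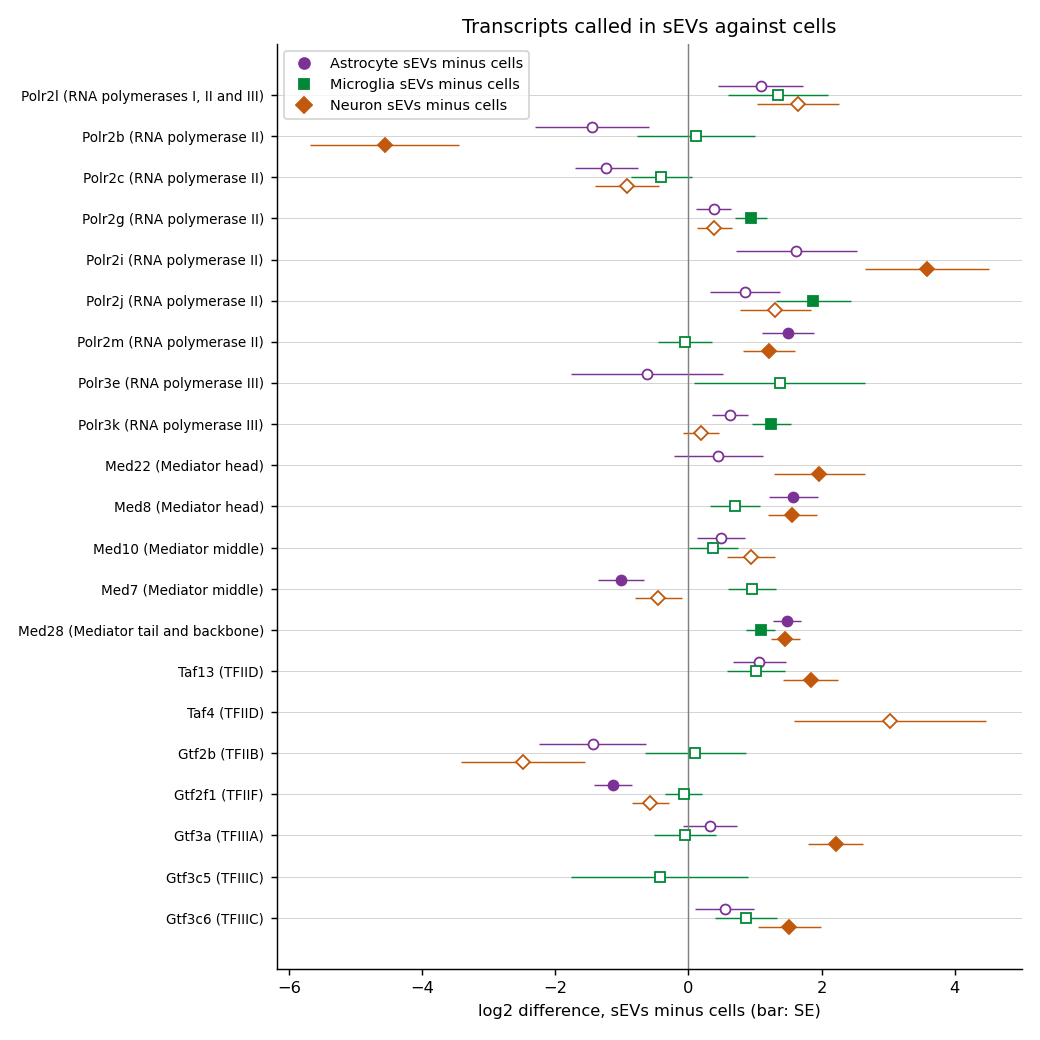
Log2 difference, sEVs minus cells, with its SE, in astrocytes, microglia and neurons for members described above that were called in a comparison of sEVs with cells. Filled symbols passed an adjusted p of 0.05, open ones did not, and points are left out where a group had 3 reads or fewer; Med28 is filled in all 3 cell types, at 1.48, 1.08 and 1.46.

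Other genes of the transcription cycle were counted for comparison, from a list of 69 genes of elongation, pausing and promoter-escape factors that are not members. Of 51 tested, 9 were called higher and 4 lower in sEVs over the 3 cell types, while 33.9% of all genes were called (14.4% higher and 19.5% lower). The 5 with the smallest adjusted p were Ccnt2, Elob, Drap1, Nelfb and Supt4a. For genes of this list it was not checked which passed the filter only through libraries in which they were high. The calls of Ccnt2 and Drap1, sparse in sEVs and in cells respectively, may thus be built in and are not taken as support. Ccnt2, a cyclin of the elongation kinase P-TEFb, fell, with 25 reads in all sEV libraries against 281 in all cell libraries (adjusted p = 3.37e-06, edgeR). Elob, an elongin subunit, rose 2.68-fold (log2 1.42 ± 0.18, SE; adjusted p = 7.38e-06, edgeR). Drap1, which with Dr1 represses initiation, had 246 reads in sEVs and 54 in cells (adjusted p = 4.69e-05, edgeR). Supt4a, of the elongation factor DSIF, rose 2.37-fold (adjusted p = 7.10e-04, edgeR). Nelfb, of the pausing factor NELF, was called lower (adjusted p = 5.18e-04, edgeR), with no reads in microglia sEVs and 53.98 ± 20.3 CPM in microglia (SD, n = 3 each). Nelfb was also the 1 gene of this list whose sEV difference depended on cell type (adjusted p = 0.021, edgeR). Within single cell types, 1 was higher and 1 lower in astrocyte sEVs, 2 and 2 in microglia sEVs, and 6 and 6 in neuron sEVs, where 20.2%, 11.9% and 31.4% of all genes were called.

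Among the cells, microglia had the most calls. Against the mean of astrocytes and neurons, 4 members were higher and 12 lower in microglia, 16 of 67, against 42.4% of all genes (18% higher and 24.4% lower). The median log2 difference was -0.65 over the tested members and -0.66 over all tested genes, so the members lay close to all genes. Astrocytes had 6 members higher and 2 lower than the mean of the other cells, 8 of 67 against 15.8% of all genes (10.7% higher and 5.11% lower). Neurons had 6 higher and 2 lower, 8 of 67 against 27.4% of all genes (19.7% higher and 7.66% lower). The 3 comparisons share their libraries and are not independent of each other.

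Polr2g was higher in microglia, at 587, 562 and 526 CPM in microglia, against 86.3, 94.6 and 50.5 CPM in astrocytes and 94.98, 64.1 and 78.7 CPM in neurons. The microglia libraries lay several-fold above all others, with a log2 difference of 2.83 ± 0.21 (SE; 7.12-fold; adjusted p = 1.11e-08, edgeR). Polr3c, a subunit that helps RNA polymerase III to open DNA, was at 134, 92.6 and 164 CPM in microglia, against 27.8, 18.4 and 21.6 CPM in astrocytes and 20.9, 18.8 and 11.7 CPM in neurons (6.55-fold; adjusted p = 1.88e-05, edgeR). The other calls in this direction, Med28 at 1.49-fold and Gtf2f1 at 1.58-fold (adjusted p = 0.018 and 0.032, edgeR), changed sign when library totals were used without TMM scaling, to -0.24 and -0.17 on the log2 scale. Without TMM scaling the median of all genes lay at -1.45 on the log2 scale in this comparison, and 2 members were higher and 27 lower.

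Within RNA polymerase III, Polr3c was high and Polr3k low in the same microglia libraries. Polr3k averaged 65.2 ± 22.6 CPM in microglia, against 175 ± 20.5 CPM in astrocytes and 179 ± 5.16 CPM in neurons (SD, n = 3 each; adjusted p = 3.59e-04, edgeR).

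Gtf2i, which encodes the signal-responsive factor TFII-I, had no reads in microglia, against 28, 46 and 39 reads in astrocytes and 9, 29 and 46 reads in neurons. This is at least 5.87-fold lower in microglia (adjusted p = 2.73e-04, edgeR). Gtf3c1, a DNA-binding subunit of TFIIIC, also had no reads in microglia, against 10, 6 and 16 reads in astrocytes and 25, 21 and 36 reads in neurons, at least 3.52-fold lower (adjusted p = 0.0090, edgeR). Med25, which binds activators, had none in microglia, against 35 reads in astrocytes and 11 in neurons, at least 1.33-fold lower (adjusted p = 0.0071, edgeR). Gtf3c1 and Med25 passed the filter only through libraries in which they were high, so their p-values here support nothing. Med22 had 2 reads in microglia, against 89 in astrocytes and 79 in neurons (adjusted p = 0.0018, edgeR). Of the 5 tested TFIIH subunits, Gtf2h5, Gtf2h3 and Gtf2h2 were lower in microglia, and Gtf2h1 and Gtf2h4 were not called. Gtf2h5 averaged 33.4 ± 23.4 CPM in microglia, against 79.4 ± 20.3 CPM in astrocytes and 111 ± 9.75 CPM in neurons (SD, n = 3 each; adjusted p = 0.011, edgeR). Gtf2h3 averaged 11.2 ± 2.84 CPM, 50.9 ± 16.5 CPM and 34.7 ± 14.7 CPM in microglia, astrocytes and neurons (SD, n = 3 each; adjusted p = 0.028, edgeR). Gtf2h2 had 2 reads in microglia, against 52 in astrocytes and 37 in neurons (adjusted p = 0.042, edgeR). Further calls were Gtf3a, Taf9b and Polr2l, with adjusted p of 0.018, 0.029 and 0.040 (edgeR). The calls of Gtf3a, Gtf2h3, Gtf2h2, Taf9b and Polr2l were each lost without 1 or more single libraries, with adjusted p up to 0.15 (edgeR).

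In astrocytes the members higher than the mean of microglia and neurons included Gtf2i, Med7, Med25, Taf13 and Med22. Of these, Gtf2i and Med22 overlapped in reads between astrocytes and neurons. Med22 had 26, 41 and 22 reads in astrocytes and 24, 32 and 23 reads in neurons. In microglia Gtf2i had no reads and Med22 had 2. Med7 was at 93.6, 107 and 128 CPM in astrocytes, against 29.3, 49.2 and 56.1 CPM in microglia and 64.4, 50.002 and 51.9 CPM in neurons (2.19-fold; adjusted p = 0.013, edgeR). Without Astrocyte_cells replicate 3, the calls of Med7 and Med25 were lost, and 3 of the 8 astrocyte calls were left. Taf13 averaged 166 ± 28.8 CPM in astrocytes, against 63.5 ± 14.9 CPM in microglia and 91.6 ± 16.8 CPM in neurons (SD, n = 3 each; adjusted p = 0.038, edgeR), and lost its call without any single cell library. Polr2g and Med28 were lower in astrocytes than in microglia and neurons on average (adjusted p = 3.84e-04 and 0.044, edgeR), and 15 of 18 single libraries ended the call of Med28 when left out, with adjusted p up to 0.19 (edgeR). In neurons, Gtf2i, Gtf3c1, Polr2l, Polr3k, Med22 and Gtf2h5 were higher and Polr2g and Polr3c lower than in astrocytes and microglia on average. Polr2l was at 29.0, 31.3 and 33.5 CPM in neurons, against 11.7, 15.5 and 10.1 CPM in astrocytes and 0, 8.68 and 7.01 CPM in microglia (adjusted p = 0.016, edgeR). Without Neuron_cells replicate 3, the calls of Polr2l, Polr3k, Med22, Gtf2h5 and Polr3c were lost. In the other genes of the transcription cycle, 3 were higher and 1 lower in astrocytes, 2 and 7 in microglia, and 5 and 1 in neurons.

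The sEVs of the 3 cell types differed from each other in 22 of the 67 tested members, against 54.6% of all genes. Polr2g (adjusted p = 1.02e-08), Gtf3a (1.13e-05) and Med22 (4.79e-05) were among those with small adjusted p (edgeR, 2 degrees of freedom). Polr2g was at 1036, 1044 and 1135 CPM in microglia sEVs, against 109, 79.2 and 111 CPM in astrocyte sEVs and 99.9, 96.9 and 114 CPM in neuron sEVs. For this gene the microglia sEVs stood apart on the same side as the microglia did among the cells. Gtf2i and Med22 had no reads in microglia sEVs. Gtf2i averaged 100.4 ± 59.7 CPM in astrocyte sEVs and 70.4 ± 5.23 CPM in neuron sEVs (SD, n = 3 each; adjusted p = 1.15e-04, edgeR). Others were Gtf2f1, Polr2i, Polr3c, Polr2m, Gtf2b, Gtf2h5 and Polr2l, with adjusted p from 8.89e-05 to 0.0030 (edgeR). Polr2i passed the filter only through the neuron sEV libraries, where it was high, so its p-value here supports nothing. Of the other transcription-cycle genes, 23 of 51 tested differed between the sEVs.

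**Figure D4:**
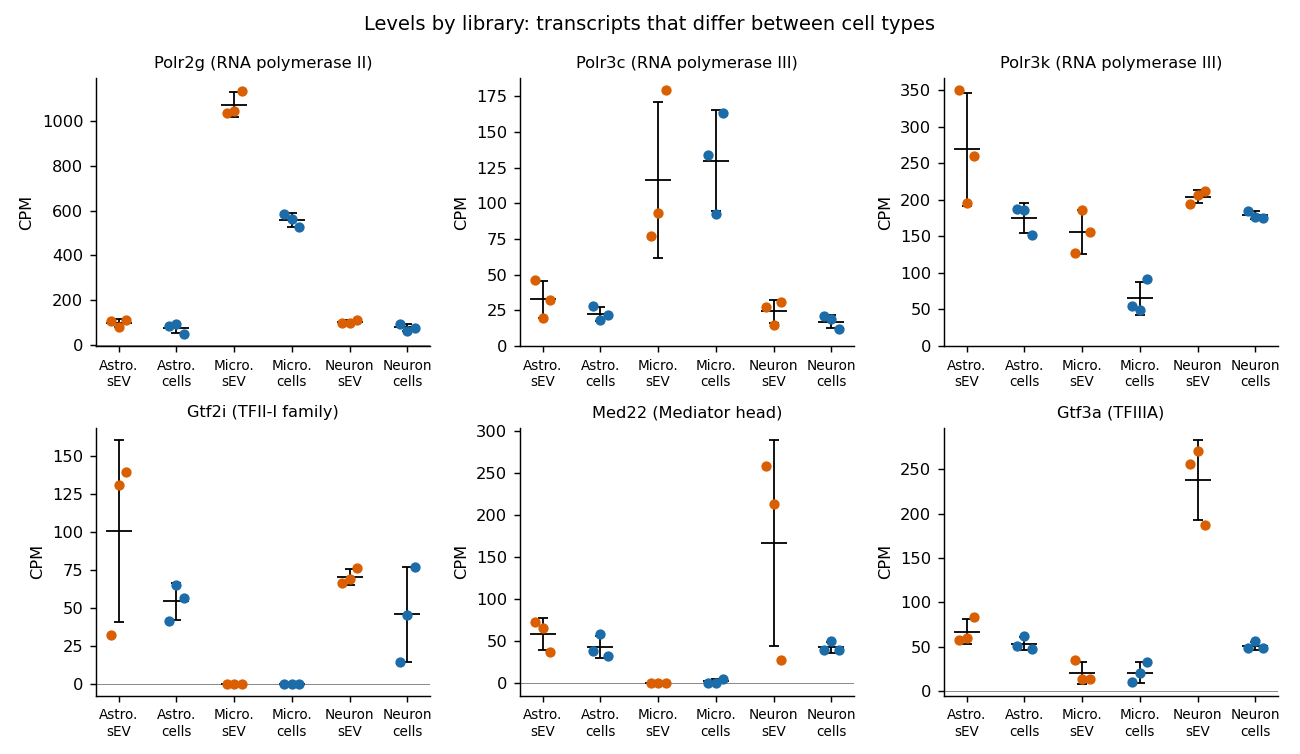
CPM of 6 members in each library, with sEVs in orange left of their source cells in blue. Points are libraries and bars the mean and SD of 3 libraries; Polr2g and Polr3c are high in microglia cells and sEVs, while Gtf2i and Med22 are near 0 there.

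Long reads also show how much of each transcript was present. The deposited table sorts isoforms by how their splice junctions match the annotation: a full-splice match holds every junction of a known transcript, and a 3′ fragment lacks junctions at the 5′ end. Of the members' reads, 89.3% were full-splice matches. The 3′ fragment share of the members' reads was 10.1%, 5.28% and 6.57% in astrocyte sEVs, against 2.65%, 2.90% and 5.14% in astrocytes. It was 2.79%, 2.64% and 3.46% in microglia sEVs, against 0.685%, 0.637% and 1.71% in microglia. It was 6.62%, 5.04% and 9.53% in neuron sEVs, against 3.44%, 2.64% and 4.74% in neurons. Each sEV group lay above its source cells without overlap. Over all genes the share averaged 7.14% in astrocyte sEVs and 2.69% in astrocytes, 4.67% in microglia sEVs and 1.60% in microglia, and 9.94% in neuron sEVs and 3.83% in neurons, so all genes moved in the same direction.

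The fragments lay in particular members. Of 87 members with at least 20 sEV reads, 45 had over 90% full-splice reads in sEVs and 17 had over 50% 3′ fragments. In cells, 50 of 83 members with 20 reads had over 90% full-splice reads, and 7 had over 50% 3′ fragments. Of 76 members with 20 reads in both fractions, the 3′ fragment share was higher in sEVs for 34 and lower for 5, and the other 37 had no 3′ fragment reads in either fraction. The 17 fragment-rich members were Med13, Med13l, Med14, Med15, Med17, Med24, Med25, Taf1, Taf4, Taf5l, Gtf3c1, Gtf3c2, Gtf3c4, Gtf2a1, Gtf2i, Gtf2ird1 and Polr3b. They were chosen by this share, so their values are a description. How many of all genes were fragment-rich in this sense was not counted.

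Med24, a tail subunit, had 50 3′ fragments among 53 sEV reads (94.3%) and 11 among 131 cell reads (8.40%), where 94 reads were full-splice matches. Med15, a tail subunit that activators bind, had 48 of 88 sEV reads as 3′ fragments (54.5%) and 9 of 97 cell reads (9.28%). Gtf2i had 259 of 298 sEV reads as fragments (86.9%) and 60 of 197 cell reads (30.5%). For these members, a count of sEV reads is thus largely a count of 3′ ends. Taf4, called higher in sEVs, had 80 3′ fragments among its 113 sEV reads and no full-splice read. Gtf3c1 was fragmented in both fractions, with 21 of 21 sEV reads and 102 of 114 cell reads as 3′ fragments.

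Med13 and Gtf3c4 were read in sEVs and hardly in cells, and were too uneven to be tested. Med13, of the Mediator kinase module, had 49, 7 and 5 reads in astrocyte sEVs, 0, 9 and 39 reads in microglia sEVs and 0, 0 and 4 reads in neuron sEVs, against none in any cell library. Of these 113 reads 99 were 3′ fragments. Gtf3c4 had 77, 4 and 5 reads in astrocyte sEVs, all of them 3′ fragments, and 4 reads in all cell libraries. A single library, astrocyte sEV replicate 1, held most of the Gtf3c4 reads.

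**Figure D5:**
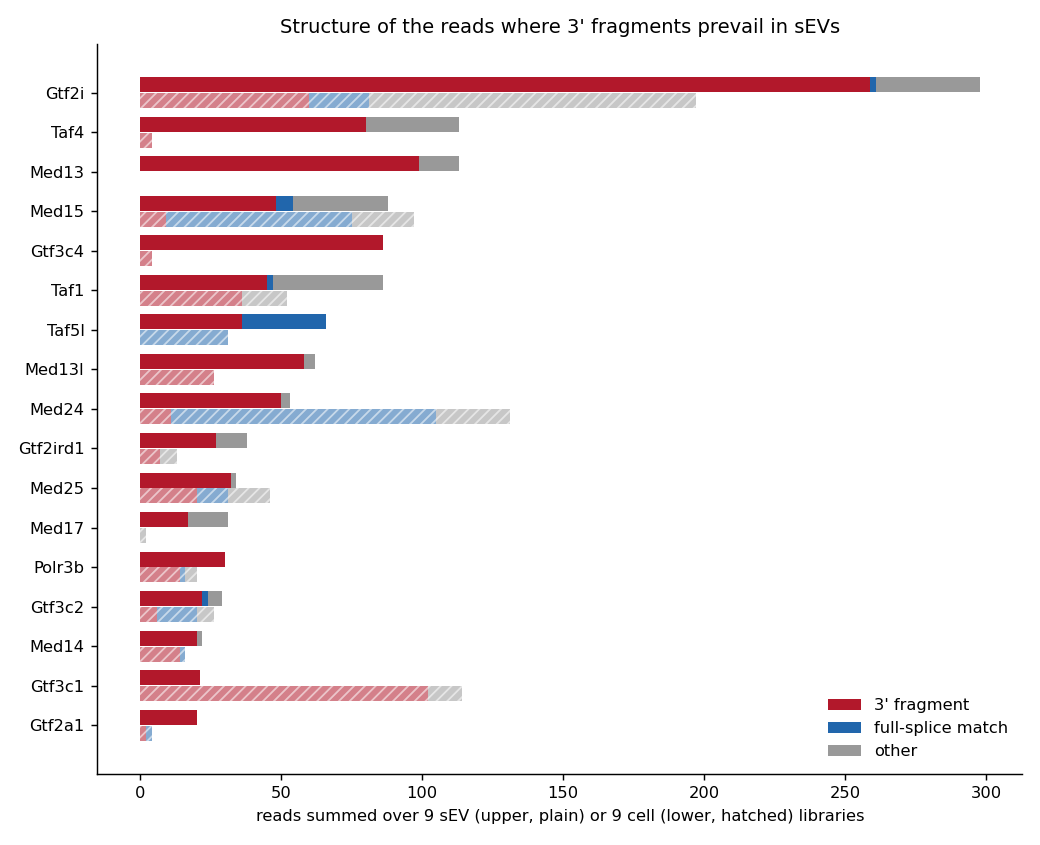
Reads of the 17 members with over 50% 3′ fragments in sEVs, summed over the 9 sEV libraries (upper, plain bars) and the 9 cell libraries (lower, hatched bars), in red for 3′ fragments, blue for full-splice matches and grey for other structures. Med24 and Med15 show blue in cells and mostly red in sEVs; Med13 has no cell reads.

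Med28 was carried by 1 full-splice isoform, with 2818 of the gene's 2875 reads, and the isoform's mean log2 difference was 1.16 ± 0.12 (SE; 2.24-fold; adjusted p = 6.17e-06, edgeR). At the level of isoforms, 12 of 67 tested members' isoforms were called, 7 higher and 5 lower in sEVs, against 28.0% of all tested isoforms (6.92% higher and 21% lower). Those called higher included the main isoforms of Taf13 (2.06-fold; adjusted p = 0.0046, edgeR), Polr2j (2.27-fold; adjusted p = 0.0081, edgeR) and Polr3k (1.42-fold; adjusted p = 0.021, edgeR) and minor isoforms of Med8, Polr2g and Gtf3a. The most read isoforms of these 3 genes were not called, with adjusted p of 0.11 for Med8, 0.76 for Polr2g and 0.31 for Gtf3a (edgeR). Those called lower included isoforms of Polr2b, Gtf3c5, Gtf2f1 and Polr2c. The Gtf3c5 isoform had 0, 3 and 0 reads in astrocyte, microglia and neuron sEVs, against 51, 4 and 30 in their cells. It could pass the filter only through cell libraries, so its call supports nothing. The minor Gtf3a isoform had 27, 4 and 81 reads in these sEVs, against 19, 0 and 2 in the cells. How it passed the filter was not checked, and its call is not taken as support. The median log2 difference was 0.11 over the members' isoforms and -0.56 over all tested isoforms.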

How the data were processed

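The authors deposited 1 table of unnormalized counts, a row for each isoform with its gene label and structural category and a column for each of 18 libraries. Per the labels' protocols, polyadenylated RNA was made into cDNA with a low-input kit, reamplified for 10 cycles and run on 2 SMRT cells per pool. The build was GRCm39 and the aligner minimap2, per the submitters' processing notes. The program that called isoforms and its annotation: not given in the sources used here.

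All isoforms of a label were added up. Library totals (434298 to 683381) set the precision: reads carry no molecular identifiers, the smallest value above 0 was 2, and a floor of 3 reads per library was used for counts of 0, which covers counting error only. The test was edgeR 4.0.16's quasi-likelihood F test under R 4.3.3 (filterByExpr, TMM, 1 mean per group, common dispersion 0.310), adjusted by Benjamini-Hochberg at 0.05. P-values of the mean contrast average the 3 cell types. Alternatives were DESeq2 1.42.0, no TMM, other filters, only the groups compared, a replicate block, full-splice counts, and libraries left out.

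Same-numbered sEV and cell libraries deviated with correlations from -0.08 to 0.08, and differently numbered ones from -0.08 to 0.07. In neurons each same-numbered correlation (0.046, 0.055 and 0.057) lay above the others (-0.046 to -0.0099). In astrocytes and microglia this did not hold for every number. All were small, and numbers were not taken as pairs, though whether they mark pairs is not known. Named genes are the called members (up to 12 per direction), the 10 most read, the most read tested member of each complex, and up to 5 called transcription-cycle genes. Med13, Gtf3c4 and the fragment-rich members were named after their values were seen. The members and lists were chosen with earlier results of these data known. Read-through labels (2, with 2 reads each) were left out. The values of 1 member are not reported here, though it is counted. Promoter sequences are RefSeq's; 3 member symbols did not match.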

Additional observations from a re-analysis of the deposited data

Results flagged for a closer look

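In 3 members the sEV libraries and the cell libraries did not overlap in 2 or 3 cell types and differed in opposite directions. The share of all genes with this pattern was not counted. The difference between cell types was itself tested (edgeR interaction, 2 degrees of freedom, adjusted over all genes), and none of the 3 passed. Med7, of Mediator's middle module, had a log2 difference (sEVs minus cells) of -1.02 in astrocytes, 0.96 in microglia and -0.45 in neurons, with an adjusted p of 0.062 (edgeR). Med27, of Mediator, had -0.87 in astrocytes and 0.80 in microglia, with an adjusted p of 0.25 (edgeR). Polr2e, shared by RNA polymerases I, II and III, had -0.26 in astrocytes and 0.46 in microglia, with an adjusted p of 0.47 (edgeR).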

How the results depend on the processing

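The number of called members depended on the settings, and no call of a member between sEVs and cells changed direction. Counts under other settings are given without the share of all genes, and so describe the settings and not the members. In order astrocytes, microglia and neurons, sEVs against cells gave 7, 5 and 11 calls, the mean 17, and cells of each type against the others 8, 16 and 8. DESeq2 gave 11 in astrocyte sEVs, 19 in neuron sEVs, 6 for the dependence on cell type (0 with edgeR) and 19 isoforms (12 with edgeR). Without TMM, microglia sEVs gave 10 (10 higher, 0 lower), neuron sEVs 6 higher and 6 lower, the dependence on cell type 6, and microglia 29; Med28 and Gtf2f1 in microglia turned to -0.24 and -0.17 (log2). Without TMM the median of all genes moved to -0.47 in neuron sEVs. Without a filter there were 2 calls in microglia sEVs, 2 for the dependence on cell type, 5 in neurons and 5 isoforms. Fits of only the groups compared gave 19, 30 and 13 in astrocytes, microglia and neurons, and 14 of 22 between sEVs. Full-splice counts alone gave 4 in astrocyte sEVs, 5 in astrocytes and 5 in neurons. The replicate block gave 5, 2 and 8 in the 3 sEV comparisons, 13 for the mean and 7 isoforms, and whether the numbers pair samples is not known. Leaving out single libraries gave 5 to 9 in astrocyte sEVs, 1 to 6 in microglia sEVs, 8 to 13 in neuron sEVs, 15 to 19 for the mean, 0 to 2 for the dependence on cell type, 3 to 10, 10 to 20 and 4 to 9 in astrocytes, microglia and neurons, 21 to 25 between sEVs, and 8 to 14 isoforms. Of the 17 mean calls, 10 held under every setting run (Med28, Med8, Taf13, Polr2j, Polr3k, Polr2m, Gtf3c6, Gtf3c5, Polr2b and Polr2c), as did the 12 members with the smallest adjusted p between sEVs. Holding adds no support for Gtf3c5, which passed the filter only through cell libraries, nor for Polr2i between sEVs, which passed it only through neuron sEV libraries. Depth left 39 members untested.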
